A study of Homo sapiens with 6 samples.

Results

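Homologous recombination and Fanconi anaemia genes were followed after exposure of MOLM-13 cells, an established leukaemia line of monocytic type with a KMT2A-MLLT3 fusion, to UC-764864. The 35 genes were chosen by symbol from the 56638 rows of the count table, and all 35 had a row and passed the filter on low counts. Poly(A) RNA was sequenced in 3 libraries from cells given 2 µM UC-764864 and 3 from cells given DMSO, the solvent, each for 24 h. The series title calls the compound, written UC-744864 in the series design text, an inhibitor of UBE2N. The comparison therefore asks which transcripts differed between inhibitor and solvent at 1 dose and 1 time in 1 cell line. Nothing in the labels states whether each library had a culture of its own; the spread behind the p-values is that between libraries and may be technical.

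Homologous recombination repairs a broken chromosome by copying the sister chromatid. The ends are cut back to single strands, BRCA1, PALB2 and BRCA2 prepare those strands for pairing, and RAD51B, RAD51C, RAD51D, XRCC2, XRCC3 and the RAD54 motors help them to invade the intact copy. The Fanconi pathway removes crosslinks between strands: a core ubiquitin ligase and the conjugating enzyme UBE2T modify FANCD2 and FANCI, which bring in nucleases and hand the break to recombination. UBE2N builds chains that mark damaged chromatin and attract BRCA1 complexes, and many genes of both pathways are transcribed most in S phase.

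Of the 35 genes, 3 passed the test of a difference between treatments. CLSPN, the claspin adaptor of the replication checkpoint, rose 1.79-fold, and EXO1, a nuclease of end resection, rose 1.34-fold. FANCF, an adaptor subunit of the Fanconi core, fell 1.46-fold. The remaining 32 did not pass (edgeR quasi-likelihood test, Benjamini-Hochberg adjusted p under 0.05 over 13490 genes). Thus 2 of 35 genes were called higher, a share of 5.71%, against 5.11% of all genes tested. In the other direction 1 of 35 was called lower, 2.86% against 8.13% of all genes. Calls in either direction made up 13.2% of all genes tested. The median log2 fold change of the 35, UC-764864 over DMSO, was 0.07 (−0.55 to 0.84), and that of all genes was 0.01.

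**Figure D1:**
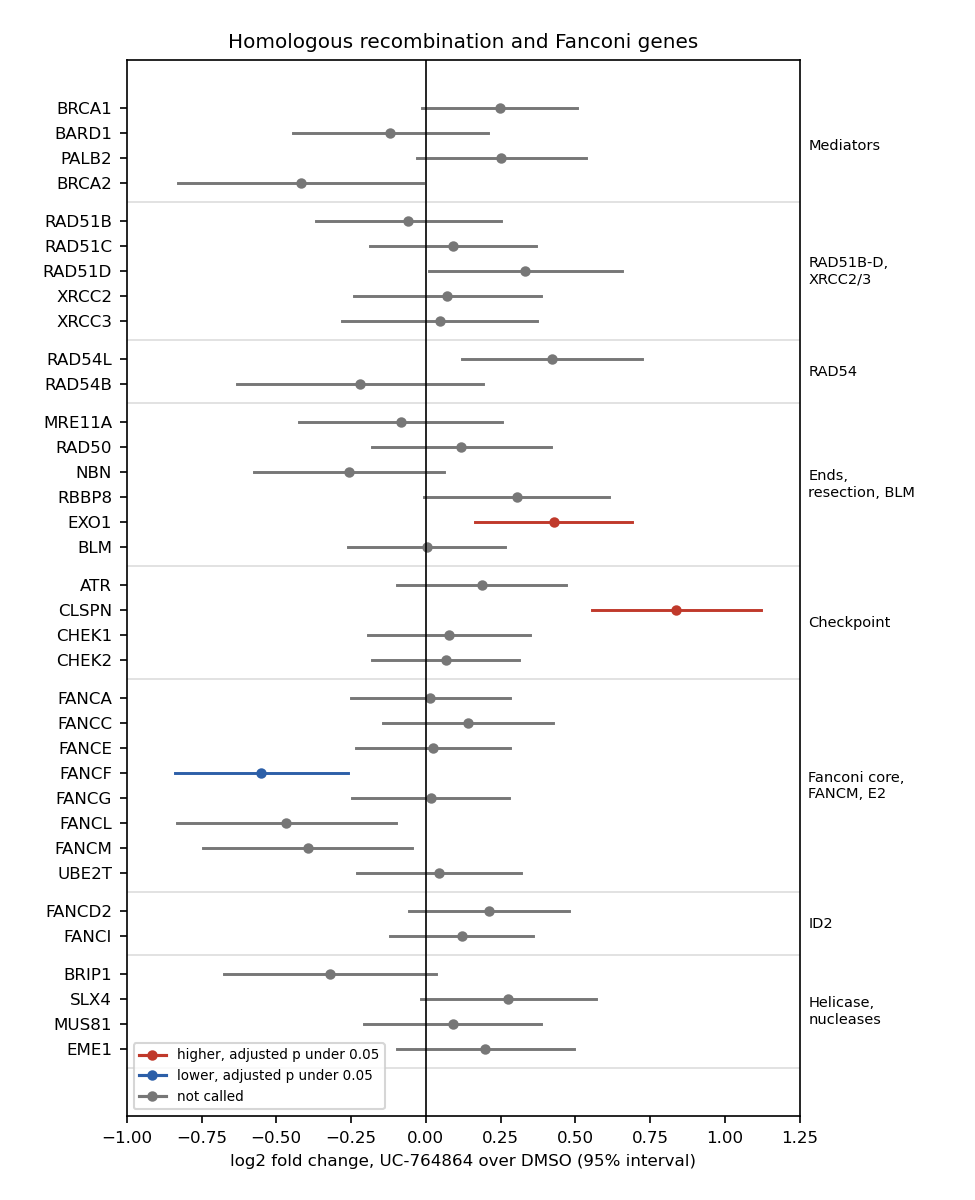
Log2 fold change (UC-764864 over DMSO, x axis) of the 35 genes (y axis, grouped by role), with points for the edgeR estimate and lines for its 95% interval. CLSPN and EXO1 lie to the right and FANCF to the left among the called genes, and the other 32 are grey.

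The libraries held 17073654 to 25014437 counts in the UC-764864 group and 16136156 to 24511499 in the DMSO group. Libraries are called by their column names: UDI0051, UDI0052 and UDI0053 received UC-764864, and UDI0054, UDI0055 and UDI0056 received DMSO. Genes in the top 10% of GC content took 6.09% and 6.52% of counts in UDI0052 and UDI0056, against 7.71% to 9.0% in the other 4. In UDI0055, 3799 rows stand at 0 in unbroken runs and were read as missing, so its total of 24511499 counts lacks them. None of the 35 genes is in those rows. Of 12 myeloid markers 11 were tested, and their summed level was 6554 to 7578 CPM (counts scaled to the same library size) after UC-764864 and 4362 to 4696 CPM after DMSO. Of the 11, 1 rose (LYZ, a lysozyme, from 3170 to 5848 CPM, edgeR adjusted p = 0.00141) and 3 fell, HOXA9 by 0.73, CSF1R by 0.58 and ITGAM by 1.02 on the log2 scale. The median of the 11 was −0.15, LYZ made up most of the sum, and the part of these markers in the results was not tested. Lymphoid markers summed to 1.81 to 2.84 and 2.86 to 3.54 CPM (CD3G and MS4A1 at 0 throughout). Erythroid and megakaryocyte markers summed to 0.129 to 0.474 and 0.461 to 0.707 CPM, with HBA1, HBA2, ALAS2, PF4 and PPBP at 0. Stromal and epithelial markers summed to 18.8 to 20.4 and 19.1 to 22.8 CPM (COL3A1 at 0).

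Promoter sequences are shown for the 3 called genes, because many genes of these pathways are known targets of E2F, the factors that drive S phase transcription. The stretches come from RefSeq's promoter windows (GRCh38.p14), read 5′ to 3′ on the gene's strand, with 150 bases before the annotated start and 20 from it. Capitals mark a match on either strand to the word TTGGCGC, to the word TTGCCGC, to the word TTCGCGC or to the word TTCCCGC, which spell an E2F site.
CLSPN (chr1:35769959-35770128, minus strand): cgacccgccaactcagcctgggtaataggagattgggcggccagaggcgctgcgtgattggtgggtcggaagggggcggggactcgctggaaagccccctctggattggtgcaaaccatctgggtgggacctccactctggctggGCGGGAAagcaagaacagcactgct
EXO1 (chr1:241848054-241848223, plus strand): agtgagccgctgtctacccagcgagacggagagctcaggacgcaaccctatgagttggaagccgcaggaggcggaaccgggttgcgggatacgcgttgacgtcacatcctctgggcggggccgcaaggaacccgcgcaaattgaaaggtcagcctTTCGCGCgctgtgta
FANCF (chr11:22625804-22625973, minus strand): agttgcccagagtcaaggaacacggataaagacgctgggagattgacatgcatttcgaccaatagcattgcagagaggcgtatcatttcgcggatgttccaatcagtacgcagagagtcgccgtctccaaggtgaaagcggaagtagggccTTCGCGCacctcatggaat

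Each of the 3 genes held 1 such word at its start, at positions −5 to 2 in CLSPN, 6 to 12 in EXO1 and 2 to 8 in FANCF, with 1 the first transcribed base. The gene that fell thus carried the same word, TTCGCGC, as EXO1, which rose. A RefSeq window of 300 bases, 250 before the start and 50 from it, was found for 32 of the 35 genes, 42 windows in all. An E2F word occurred in 21 of the 42 windows (50%), which belong to 18 genes, against 12.97% of all 35116 windows and 19.1% of the 12688 windows of genes tested. TTTGAA, the cell cycle homology element of G2 genes, searched on both strands, occurred in 3 of the 42 windows (7.14%), in 15.2% of all windows and in 10.5% of those of genes tested. Windows of a gene with several starts can overlap, and a match is letters only.

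Among the checkpoint genes, CLSPN encodes the adaptor that lets the kinase ATR activate CHK1 at stalled forks. It stood at 83.7, 94.5 and 73.2 CPM in UDI0051, UDI0052 and UDI0053 and at 46.2, 51.0 and 43.4 CPM in UDI0054, UDI0055 and UDI0056. All 3 UC-764864 libraries lay above all 3 DMSO libraries. The log2 fold change was 0.84 ± 0.13 (SE), from 46.8 ± 3.85 to 83.8 ± 10.6 CPM (SD, n = 3 per group; edgeR adjusted p = 0.0047). The call held in each fit without a library, and it was lost with the missing rows of UDI0055 taken as true zeros (0.82, adjusted p = 0.0509). An antisense gene, AL354864.1, overlaps CLSPN in GENCODE 29, so some of its reads may be uncertain, as the strand setting of the counting is not given. None of the kinase genes around it passed. ATR, the sensor kinase, was at 0.19 ± 0.13 (95% interval −0.10 to 0.47), CHEK1, its effector, at 0.08 ± 0.12 (−0.19 to 0.35), and CHEK2, the effector of ATM, at 0.07 ± 0.11 (−0.18 to 0.31). These intervals end well below the estimate for CLSPN.

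Of the 6 genes that sense or process broken ends, EXO1 alone was called. EXO1 digests DNA ends over long distances after the first cuts have been made. Its levels were 60.8, 69.0 and 56.5 CPM after UC-764864 and 44.1, 48.8 and 45.5 CPM after DMSO. The groups did not overlap, with UDI0052 highest. EXO1 thus rose by 0.43 ± 0.12 on the log2 scale, from 46.1 ± 2.45 to 62.1 ± 6.34 CPM (edgeR adjusted p = 0.0391), close to the threshold. The call was lost without UDI0051, UDI0052, UDI0053 or UDI0054 (adjusted p = 0.145, 0.129, 0.0762 and 0.147). It was also lost without UDI0052 and UDI0056 together (0.31, adjusted p = 0.0698), and 7 of 14 alternative fits kept it.

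RBBP8 encodes CtIP, which starts resection together with the MRE11 nuclease. Its levels were 86.7, 116 and 89.2 CPM after UC-764864 and 72.2, 74.3 and 89.5 CPM after DMSO. UDI0056 reached the level of UDI0053, so the groups overlapped, and UDI0052 stood above the rest. RBBP8 did not pass, at 0.30 ± 0.14 on the log2 scale (edgeR adjusted p = 0.166). The 3 subunits of the MRN complex, which binds broken ends, had no shared direction: MRE11A was at −0.08 ± 0.15, RAD50 at 0.12 ± 0.14 and NBN at −0.26 ± 0.15, with adjusted p from 0.248 to 0.743. BLM, a helicase that acts in resection and in the dissolution of joint molecules, had nearly equal means in both groups, 108 ± 8.89 CPM with UC-764864 and 108 ± 11.1 CPM with the solvent, with a 95% interval of −0.26 to 0.27 on the log2 scale.

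Of the 4 genes of the loading machinery, 2 lay above 0 and 2 below on the log2 scale. None was called by edgeR or DESeq2, and 1, BRCA2, had an unadjusted edgeR p under 0.05. BRCA1, the ubiquitin ligase that promotes resection and brings in PALB2, was at 148, 180.4 and 158 CPM after UC-764864 and at 136, 126 and 147 CPM after DMSO. The groups did not overlap, but UDI0051 and UDI0056 were nearly level. On the log2 scale the difference was 0.25 ± 0.12 and did not pass (edgeR adjusted p = 0.178). PALB2, the bridge between BRCA1 and BRCA2, was also higher in every UC-764864 library, at 0.25 ± 0.13 (adjusted p = 0.206), with 30.9 CPM in UDI0053 against 30.8 CPM in UDI0056. BRCA2, the mediator that acts on the resected single strands, was at 39.9, 52.4 and 46.2 CPM after UC-764864 and at 59.6, 45.5 and 80.2 CPM after DMSO. The DMSO libraries spread over a wider range than the difference between groups, with UDI0055 within the UC-764864 range and UDI0056 far above it. Its log2 fold change was −0.42 ± 0.19 (edgeR adjusted p = 0.152). It passed without UDI0055 (−0.60, adjusted p = 0.0219) and without the filter on low counts (adjusted p = 0.0315), and stood at −0.19 without UDI0056. BARD1, the partner of BRCA1 in its ligase, was at −0.12 ± 0.15 (adjusted p = 0.621).

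**Figure D2:**
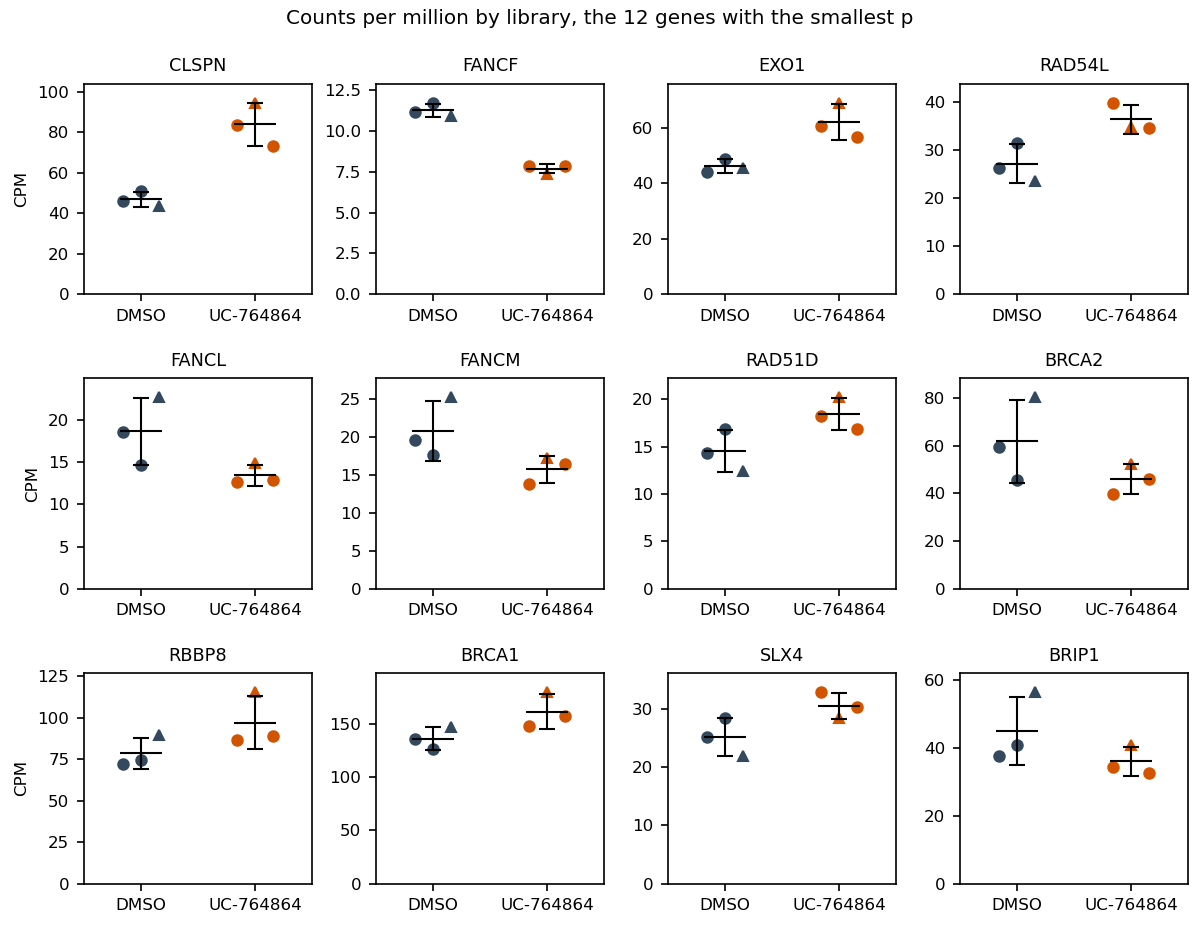
CPM (y axis, from 0) in each library of the 12 genes with the smallest p, DMSO in blue-grey and UC-764864 in orange, with bars for the mean ± SD and triangles for UDI0052 and UDI0056. CLSPN, FANCF and EXO1, and also RAD54L, FANCM and BRCA1, separate by group. The triangle of UDI0056 lies above the other DMSO points for FANCL, FANCM, BRCA2, RBBP8, BRCA1 and BRIP1.

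RAD51B, RAD51C, RAD51D, XRCC2 and XRCC3, 5 related genes whose products act in small complexes during strand pairing, had log2 fold changes from −0.06 to 0.33. None was called by edgeR or DESeq2, and 1, RAD51D, had an unadjusted edgeR p under 0.05. RAD51D stood at 18.3, 20.2 and 16.8 CPM after UC-764864 and at 14.3, 16.9 and 12.5 CPM after DMSO. UDI0055 lay just above UDI0053, so the groups touched. RAD51D did not pass, at 0.33 ± 0.15 (edgeR adjusted p = 0.148). RAD51D shares exons with the readthrough gene RAD51L3-RFFL, so its reads may be split. RAD51C and XRCC3, which form the complex acting late in the reaction, were at 0.09 ± 0.13 and 0.05 ± 0.15, and RAD51B and XRCC2 at −0.06 ± 0.14 and 0.07 ± 0.14. The groups overlapped for all 5.

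The RAD54 motors, which drive strand invasion, differed in sign. RAD54L was at 39.9, 34.9 and 34.6 CPM after UC-764864 and at 26.4, 31.6 and 23.5 CPM after DMSO. All UC-764864 libraries were above all DMSO libraries. A log2 fold change of 0.42 ± 0.14 was as large as that of EXO1 but missed the threshold (edgeR adjusted p = 0.0633). DESeq2 called it (0.41, adjusted p = 0.0467), as did edgeR without UDI0055 (0.55, adjusted p = 0.0169). Exons of LRRC41 overlap RAD54L on the opposite strand, so some of its reads may be uncertain. RAD54B was at −0.22 ± 0.19 (adjusted p = 0.451), with 10.4 to 18.3 CPM among the DMSO libraries alone.

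Within the Fanconi core, FANCF joins FANCC and FANCE to FANCM and to the other subunits. Its levels were 7.84, 7.38 and 7.89 CPM after UC-764864 and 11.2, 11.7 and 10.9 CPM after DMSO, and the groups were clearly separated. These were among the lowest levels of the set, 114 to 287 counts per library. FANCF fell by 0.55 ± 0.13 on the log2 scale, from 11.3 ± 0.412 to 7.70 ± 0.283 CPM (edgeR adjusted p = 0.0226). No call remained on leaving out UDI0051 (adjusted p = 0.109), UDI0053 (0.0746) or UDI0054 (0.075), or with the missing rows taken as zeros (adjusted p = 0.0568), while the size stayed between −0.60 and −0.52 in all 14 alternative fits. Exons of GAS2 overlap FANCF on the opposite strand, so some of its reads may be uncertain.

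FANCL, the ligase subunit that acts with UBE2T, was at 12.6, 14.8 and 12.8 CPM after UC-764864 and at 18.6, 14.6 and 22.6 CPM after DMSO. UDI0055 fell within the UC-764864 range and UDI0056 was highest. FANCL was at −0.47 ± 0.17 (edgeR adjusted p = 0.0828), and it passed without UDI0055 (−0.62, adjusted p = 0.0153) and without the filter (adjusted p = 0.0338). It too has an overlap on the opposite strand, with VRK2 and AC007250.1. FANCM, the translocase that anchors the core to DNA, was at 13.7, 17.2 and 16.4 CPM after UC-764864 and at 19.5, 17.6 and 25.2 CPM after DMSO. The groups did not overlap, though UDI0052 and UDI0055 nearly met. FANCM was at −0.40 ± 0.16 (adjusted p = 0.117), and it passed without UDI0055 (−0.50, adjusted p = 0.0423).

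The remaining core genes had nearly equal levels in both groups. FANCA, FANCE and FANCG, scaffold and adaptor subunits, had log2 fold changes of 0.01, 0.02 and 0.02, with 95% intervals that together ran from −0.25 to 0.28. FANCC was at 0.14 ± 0.13 (edgeR adjusted p = 0.49). UBE2T, the conjugating enzyme of the pathway, was at 53.5 ± 6.22 CPM after DMSO and 55.1 ± 4.12 CPM after UC-764864 (0.04 ± 0.13, adjusted p = 0.842). FANCA overlaps ZNF276 on the opposite strand. The substrates of the core, FANCD2 and FANCI, were at 0.21 ± 0.12 and 0.12 ± 0.11 and did not pass (adjusted p = 0.26 and 0.485), although FANCD2 was higher in all UC-764864 libraries, 76.4 to 84.4 CPM against 60.3 to 74.9 CPM.

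None of the 4 downstream genes was called by edgeR or DESeq2, and 0 had an unadjusted edgeR p under 0.05. SLX4, the scaffold that gathers nucleases at a crosslink, was at 32.9, 28.4 and 30.3 CPM after UC-764864 and at 25.1, 28.4 and 22.0 CPM after DMSO. UDI0052 and UDI0055 were level, so the groups met. SLX4 was at 0.28 ± 0.13 (edgeR adjusted p = 0.18). BRIP1, a helicase that binds BRCA1, was at 34.4, 40.8 and 32.6 CPM after UC-764864 and at 37.6, 40.8 and 56.3 CPM after DMSO. UDI0054 lay within the UC-764864 range, UDI0055 was level with UDI0052, and UDI0056 stood above the rest. BRIP1 was at −0.32 ± 0.16 (adjusted p = 0.199). MUS81 and EME1, the subunits of 1 structure-specific nuclease, were at 0.09 ± 0.13 and 0.20 ± 0.14 (adjusted p = 0.683 and 0.337).

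The groups did not overlap for 8 of the 35 genes, a share of 22.9% against 36.1% of all genes tested. Separated without being called were BRCA1, PALB2, RAD54L and FANCD2, higher, and FANCM, lower. Beside the 3 called genes these were the only ones.

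Signs of the differences went with base composition. GC content of the longest protein-coding transcript in GENCODE 29 ran from 36.3% in BRCA2 to 62.5% in XRCC3. The split at 40% was chosen after the values were seen. All 8 genes under 40% (BRCA2, NBN, RAD54B, BRIP1, FANCM, BARD1, MRE11A and FANCL) had a log2 fold change below 0, with a median of −0.29, and all 8 were highest in UDI0056. Of the other 27, 25 were above 0, the exceptions being FANCF and RAD51B, and the median was 0.12. The same held less sharply for all genes: 85.3% of the 1807 genes under 40% were below 0, against 41.7% of the 10379 others. Across the 35 genes GC content and log2 fold change had a Pearson r of 0.31 and a Spearman rho of 0.41, against 0.20 and 0.25 across 12186 genes. These points share the same 6 libraries, so the values describe them only.

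**Figure D3:**
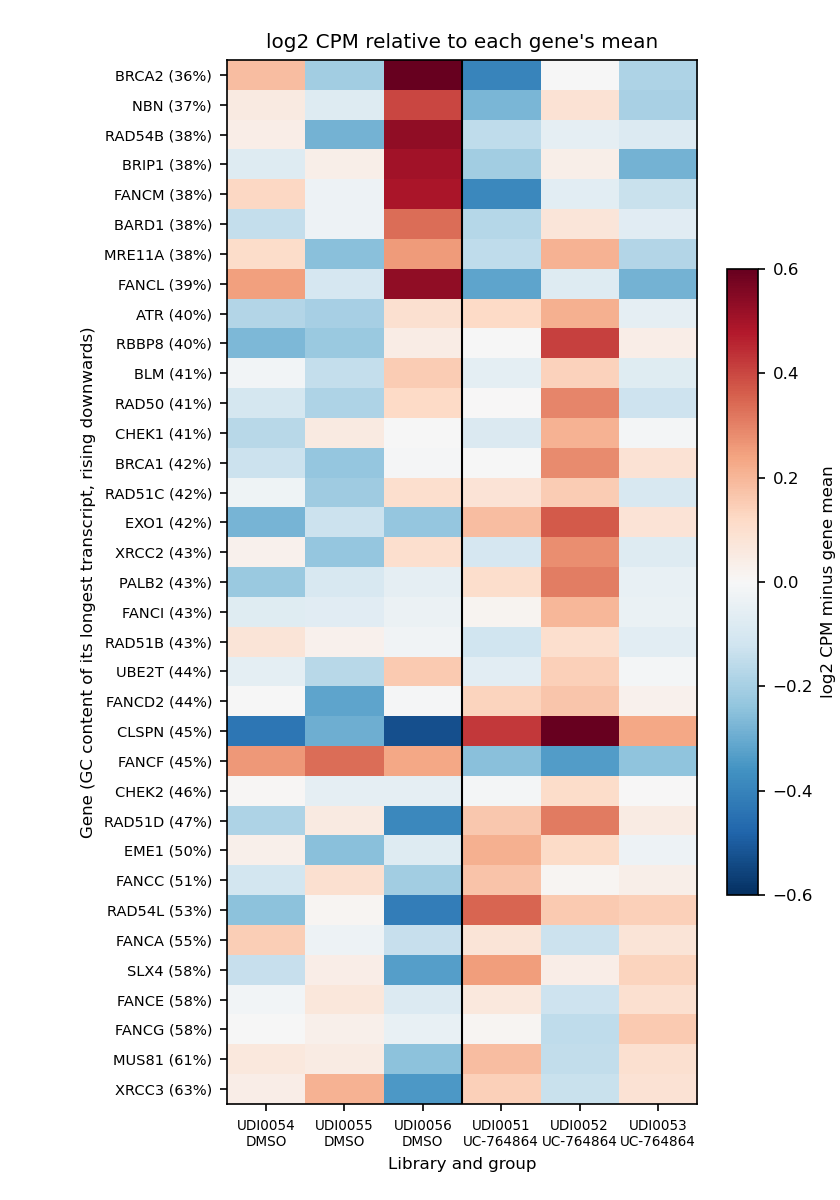
Log2 CPM of each gene minus its mean over the libraries (colour, from −0.6 in blue to 0.6 in red, clipped beyond), with libraries on the x axis and the 35 genes on the y axis by rising GC content, given in percent. The 8 genes under 40% GC at the top are reddest in UDI0056, 15 of the other 27 are highest in UDI0052, and CLSPN and FANCF are split by group in every library.

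With each library's GC trend removed, 10 of the 35 genes were called higher (28.6%) and 1 lower (2.86%), against 21.1% and 13.0% of the 12186 genes with a GC value. Beside CLSPN and EXO1, the genes higher were RBBP8 (0.51, edgeR adjusted p = 4.08e-04), ATR (0.40), BRCA1 (0.36), RAD54L (0.33), PALB2 (0.32), RAD50 (0.26), FANCD2 (0.24) and SLX4 (0.23), with adjusted p from 0.00168 to 0.0427 for the last 7. FANCF kept its call and its size (−0.57, adjusted p = 0.00245), as did CLSPN (0.83, adjusted p = 8.88e-05). BRCA2 then stood at 0.03, BRIP1 at 0.05, NBN at 0.12 and FANCL at −0.20. Of the 8 genes under 40% GC, 2 remained below 0. In that fit 62.0% of the calls over all genes were rises, against 38.6% without the correction, so its counts read against a different background.

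Differences were also taken within each kind of library. Between UDI0052 and UDI0056, the pair poorest in GC-rich counts, the difference in log2 CPM was 1.12 for CLSPN and −0.56 for FANCF, and between the other 4 libraries it was 0.69 and −0.54. For EXO1 these values were 0.60 and 0.34, and for RAD54L 0.57 and 0.36. For BRCA2 they were −0.61 and −0.28, and for RAD54B −0.59 and 0.01. A pair of single libraries has no replicate, so these are values without a test.

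**Figure D4:**
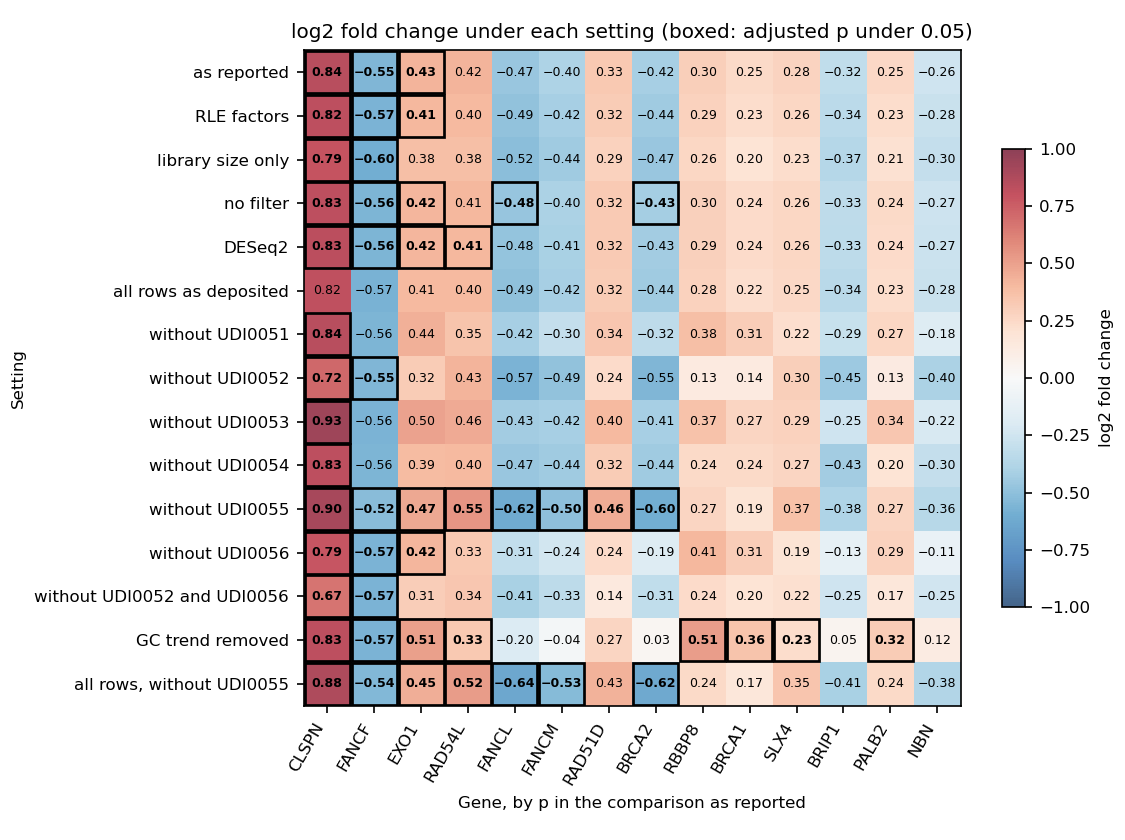
Log2 fold change (colour and number) of the 14 genes with the smallest p (x axis) under the reported setting and 14 alternatives (y axis), boxed where the adjusted p is under 0.05. CLSPN is boxed in 13 of the 14 alternatives, FANCF in 10 and EXO1 in 7. With the GC trend removed RAD54L, RBBP8, BRCA1, SLX4 and PALB2 are boxed as well.

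Levels differed widely between the genes. The scale was CPM per kb of the longest protein-coding transcript, averaged over 6 libraries. On it UBE2T was highest at 59.8, followed by NBN at 55.5, FANCI at 34.5 and RBBP8 at 26.7. BRCA1 stood at 20.5 and BRCA2 at 4.50, FANCD2 at 14.5 and FANCF at 3.22. The genes lowest on this scale were RAD51D at 1.65, FANCM at 2.57 and RAD51B at 2.89. The scale takes the longest protein-coding transcript, whichever is expressed, so a gene whose cells use a shorter one is understated. The called genes did not stand at one end: EXO1 at 15.6 and CLSPN at 13.7 lay in the middle and FANCF near the bottom.

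**Figure D5:**
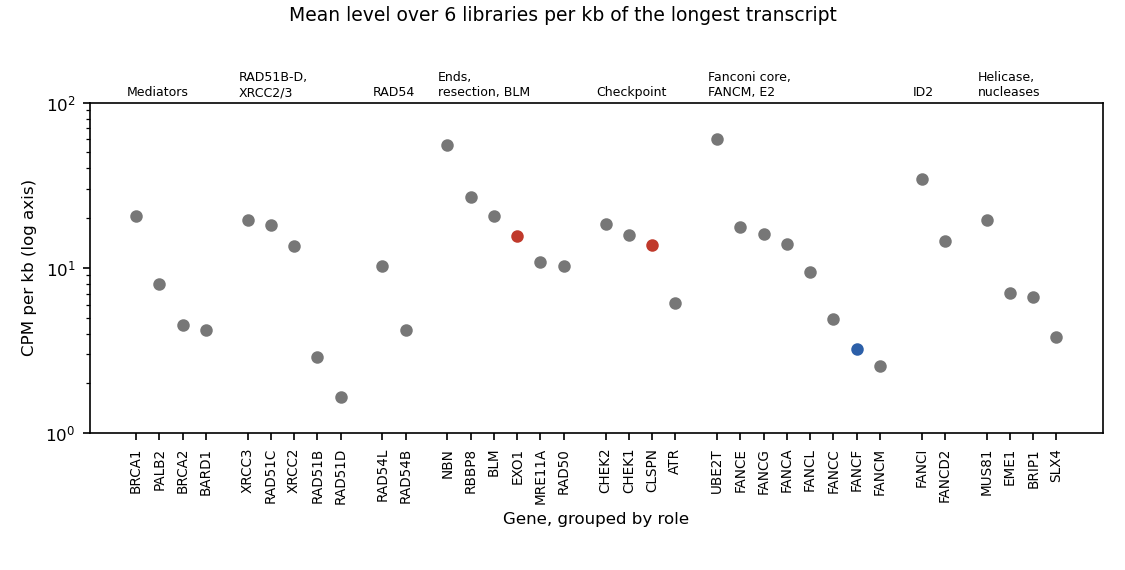
Mean level over 6 libraries in CPM per kb of the longest protein-coding transcript (log y axis) of the 35 genes. Genes are grouped by role on the x axis, with called rises in red and the called fall in blue. UBE2T and NBN lie highest, and RAD51D lowest.

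Other genes of the same pathways, from a list of 65, gave 62 tested genes, of which 4 rose (6.45%) and 4 fell (6.45%), and the median change on the log2 scale was 0.10. Falls with the smallest p were in ETAA1, an activator of ATR (−0.94 ± 0.20, edgeR adjusted p = 0.0151), and GEN1, a resolvase of joint molecules (−0.71 ± 0.16, adjusted p = 0.0191). Both have a GC content under 40% (36.6% and 39.9%) and were highest in UDI0056, at 27.7 and 61.7 CPM. The part of GC content in these falls was not tested. The rises were led by PSMC3IP, a cofactor of strand exchange (0.56 ± 0.13, adjusted p = 0.0217), and RTEL1, a helicase that undoes invaded strands (0.96 ± 0.24, adjusted p = 0.0256), the latter at only 1.41 and 2.70 CPM.

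Lists of DNA replication and of mitosis genes were set beside these. Of all genes tested, 5.11% rose and 8.13% fell. Of 39 tested S phase genes 9 rose (23.1%) and 0 fell, with a median log2 fold change of 0.28, and of 24 mitotic genes 4 rose (16.7%) and 0 fell, with a median of 0.27. At an unadjusted edgeR p under 0.05 these falls numbered 1 and 2, and DESeq2 also called 1 and 2. Whether these shares differ from the 5.71% of the recombination and Fanconi genes was not tested, nor was the part of the share of cells in S phase in the rise of CLSPN and EXO1. In bulk RNA, more cells in S phase and more RNA per S phase cell cannot be told apart. In end joining, the competing repair route, 3 of 12 tested genes rose (25%) and 0 fell (2 at an unadjusted edgeR p under 0.05, 0 by DESeq2). These were PRKDC, its kinase (0.55 ± 0.11, edgeR adjusted p = 0.0103), XRCC6, which encodes Ku70 (0.50 ± 0.12, adjusted p = 0.0249), and TP53BP1, which protects ends from resection (0.45 ± 0.11, adjusted p = 0.0261). The median log2 fold change of the 12 end joining genes was 0.001, with 6 above 0 and 6 below.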

How the data were processed

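Per the labels' protocols, RNA was poly(A)-selected and read as pairs; strandedness is worded ambiguously there. The authors deposited raw counts per gene. FastQC 0.11.7, HISAT2 2.0.5, featureCounts 1.5.2 and GRCh37 are named, without roles, in the submitters' processing notes. Annotation release and strand setting: not given in the sources used here. Treatments were taken from the deposited sample sheet, whose columns are unnumbered.

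The 3799 rows at 0 in UDI0055 were left out, so 52839 of 56638 rows were used. Counts were filtered (filterByExpr), scaled by TMM and tested with edgeR 4.0.16 (glmQLFit, glmQLFTest) in R 4.3.3, with treatment as the only term. The SE of a log2 fold change is its absolute value over the root of F, and 95% intervals use the test's degrees of freedom. CPM uses TMM-scaled library sizes. No 2 libraries agreed within sampling noise. Chi-square per degree of freedom was 4.40 to 41.0 for pairs within a group and 17.8 to 78.8 for pairs between groups. The 41.0 was between the DMSO libraries UDI0055 and UDI0056. The fit was tested on simulated counts with 200 genes changed and no GC trend between libraries, so its behaviour under such a trend was not tested. GENCODE 29 (GRCh38) gave transcript lengths and GC content, from the longest protein-coding transcript where a gene had any. It also gave the genes with overlapping exons, found for 22 of the 35, not all of them named above. Values per library are given for the 12 genes with the smallest p. From other lists, up to 4 called genes are named by p. The genes and lists were chosen with earlier results of these data known. Alternatives were RLE factors, library size only, no filter, DESeq2 1.42.0, all rows, each library left out, 2 libraries left out, the GC trend removed, and, chosen after seeing the data, all rows without UDI0055.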

Additional observations from a re-analysis of the deposited data

How the results depend on the processing

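The comparison called 2 of the 35 genes higher and 1 lower, among 690 and 1097 of all genes. RLE factors kept these counts for the 35 genes. With library size only, 1 was higher, among 508 of all genes. With no filter, 3 were lower, among 1676 of all genes. With all rows as deposited, 0 were higher and 0 lower by edgeR, among 22 and 125 of all genes, and 3 and 3 had an unadjusted p under 0.05. Without UDI0052 and UDI0056, 1 was higher, among 559 of all genes. With the GC trend removed, 10 were higher, among 2573 of all genes, and the median of the 35 moved from 0.07 to 0.15. With all rows and without UDI0055, 4 were lower, among 1401 higher and 1974 lower of all genes. Leaving out 1 library gave 1 to 4 higher and 0 to 4 lower, among 62 to 1525 and 278 to 1729 of all genes, with medians of the 35 from 0.02 to 0.09. The highest counts came without UDI0055, which called 4 higher and 4 lower. DESeq2 called 3 higher (8.57%) and 1 lower (2.86%), among 899 (6.56%) and 1304 (9.52%) of all genes. Rises made up 28.6% of calls with library size only, against 38.6%. The 3 called genes kept their direction in all 14 alternatives. BRCA2, called lower in 3, stood at 0.03 with the GC trend removed, and RAD50, called higher with that trend removed, at −0.03 without UDI0052. The cause of these shifts was not tested. No paired analysis was possible because the columns carry no replicate numbers.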

Other observations

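FANCB, a subunit of the Fanconi core encoded on the X chromosome, could not enter the comparison, because its row is among those at 0 in UDI0055. Its counts were 130, 152 and 133 after UC-764864 and 217 and 230 in the DMSO libraries UDI0054 and UDI0056. Scaled, these were 5.86, 9.84 and 7.0 CPM against 9.59 and 15.2 CPM, so UDI0052 lay above UDI0054 and the groups overlapped. Over these 5 libraries the log2 fold change was −0.73 ± 0.24 (edgeR adjusted p = 0.0418). That fit called 4 of the 35 genes lower (11.4%) and 3 higher (8.57%), against 13.9% and 9.88% of all genes. FANCB was highest in UDI0056 and, after UC-764864, in UDI0052, the libraries poorest in GC-rich counts. The part of GC content in its difference was not tested. The value of FANCB was looked at after the rows at 0 were known.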
